A study of Mus musculus with 2 samples.

Results

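Genes that handle lipids were compared between thalamic immune cells of brain-injured mice given control Ab and of mice given anti-CD9 Ab. The group was set by name as 10 genes, *Apoe*, *Apoc1*, *Apoc2*, *Lpl*, *Fabp4*, *Fabp5*, *Abca1*, *Abcg1*, *Plin2* and *Cd36*, and each of the 10 matched 1 of the 33696 gene rows of both single-cell RNA-seq (scRNA-seq) libraries. Both libraries were made from live CD45+ cells sorted from the thalamus of C57B6/J mice, mostly females in this study, on day 21 after cortical ablation injury (CAI), a surgical removal of cortex that both groups received. The control group was given normal rat IgG and the other group the CD9 antibody clone KMC8, each at 1.0 µg/µl through a cannula in the thalamus from day 7 to day 19. CD9 is a surface protein of several immune cell types, so the antibody was not limited to 1 of them. Cells of 4 mice were pooled per thalamic library according to the methods, which do not repeat the number for these groups. Each antibody had a single library, so nothing was tested, and effects of the antibody, of the mice pooled and of the library cannot be told apart.

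Myeloid cells that clear dying neurons and myelin take up large amounts of lipid, which they have to store, burn or pass on. Apolipoproteins such as *Apoe* carry lipid out of the cell, and *Abca1* and *Abcg1* are the membrane pumps that load cholesterol onto them. *Lpl* encodes lipoprotein lipase, which frees fatty acids from lipoproteins, *Cd36* encodes a scavenger receptor that takes up fatty acids and oxidised lipoproteins, *Fabp4* and *Fabp5* carry fatty acids within the cell, and *Plin2* coats lipid droplets. In the injured brain, *Apoe*, *Lpl* and *Fabp5* are known as genes of lipid-laden phagocytes and of damage-associated microglia.

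The files held 38042608 unique molecular identifiers (UMIs, 1 per captured RNA molecule) for the control library and 40825201 for the anti-CD9 Ab library. The study's limits on quality (200 to 7500 genes, up to 2% mitochondrial counts) kept 7467 and 9162 cells, with medians of 1880 and 1419 UMIs, and 54 cell barcodes occurred in both libraries. Clustering gave 24 clusters, of which 16 took a name from marker genes. Microglia-like cells numbered 1715 in the control library and 741 in the anti-CD9 Ab library, macrophage-like cells 171 and 847, and monocyte-like cells 14 and 277. The balance of the libraries differed widely, with 37.6% and 10.7% T cell-like and 0.870% and 29.1% neutrophil-like cells among those kept. In spite of the CD45 sort, 429 and 78 astrocyte-like and 303 and 94 oligodendrocyte-like cells were present. The NK cell-like cluster (406 and 162 cells) had 8 NK cell and 8 T cell markers 2-fold or more above the other cells. *Cd8b1* and *Cd8a* were among its leading genes, and NK and T cells within it were not told apart. Levels below are counts per 1000000 (CPM), that is, UMIs of a gene per 1000000 UMIs of the same cells, summed over the cells of 1 type and library. Ratios are log2 values of anti-CD9 Ab over control Ab, given for genes with at least 50 UMIs in the 2 libraries together, and all intervals are 95% intervals that cover counting error only.

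In microglia-like cells, *Lpl* was far lower and *Cd36* higher with anti-CD9 Ab, whereas the other members differed by less than 2-fold. *Lpl* was at 442.8 CPM (3556 UMIs) with control Ab and 50.25 CPM (130 UMIs) with anti-CD9 Ab, 8.81-fold lower (log2 ratio -3.14, -3.40 to -2.89). Without integration of the libraries, when 172 microglia-like cells were found with anti-CD9 Ab, the log2 ratio of *Lpl* was -1.69. *Cd36* was at 17.18 CPM (138 UMIs) and 65.71 CPM (170 UMIs), a log2 ratio of 1.94 (1.60 to 2.27). Of the 9 members with enough UMIs, 1 was 2-fold or more lower and 1 was 2-fold or more higher, with a median log2 ratio of 0.12. Of all 10540 genes measured in these cells, 3.66% were 2-fold or more lower and 3.03% 2-fold or more higher, with a median of 0.02. Markers of cell types also differed in these cells. All 10 microglial markers were lower with anti-CD9 Ab, 3 of them 2-fold or more, with a sum of 12708 CPM with control Ab and 7652 CPM with anti-CD9 Ab. Of the other lists, 3 of 4 monocyte, 3 of 6 macrophage and 4 of 7 neutrophil markers measured were 2-fold or more higher, with sums of 1194 and 1159, 1335 and 1483, and 553.0 and 783.9 CPM. T cell markers (2 of 2 measured, sums of 48.93 and 15.85 CPM) and plasma cell markers (3 of 4 measured, 206.8 and 130.6 CPM) were 2-fold or more lower. The part of these markers in the ratios was not tested.

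**Figure D1:**
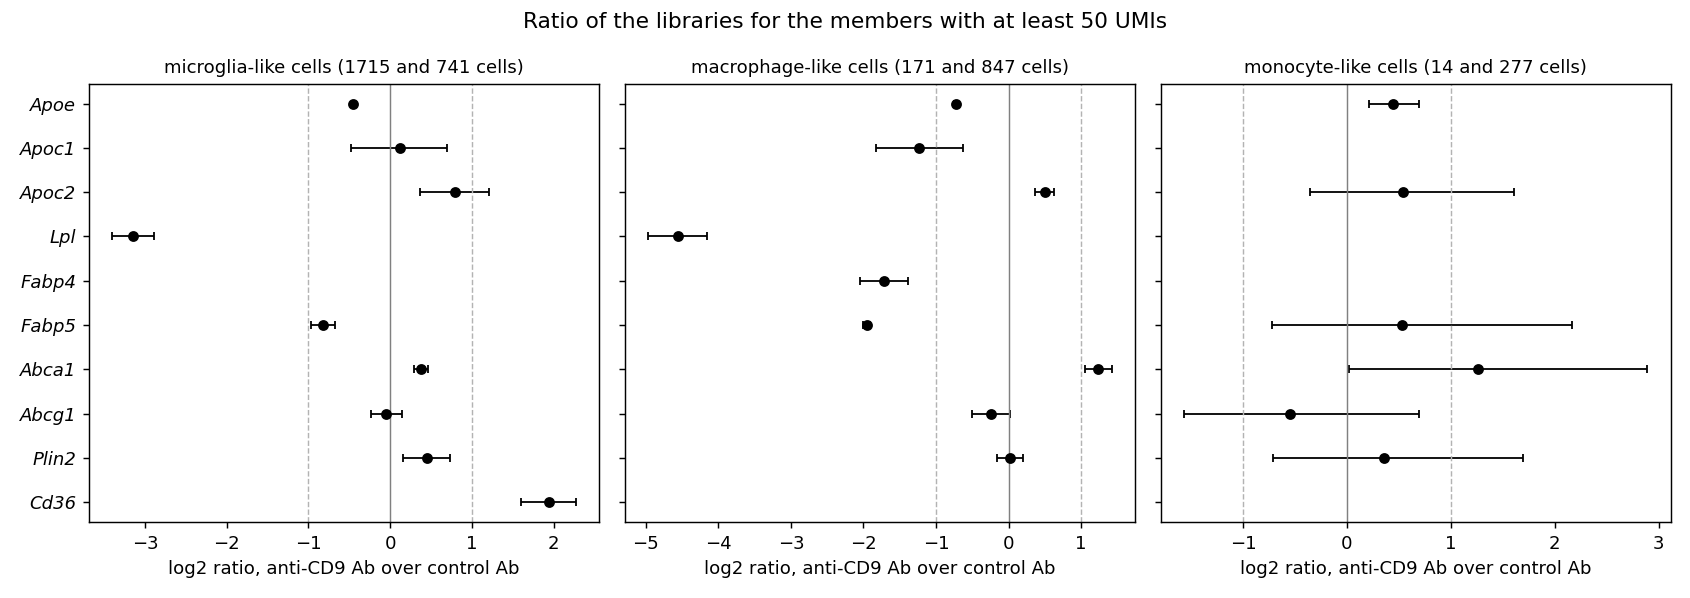
Log2 ratio of anti-CD9 Ab over control Ab for each member with at least 50 UMIs, in microglia-like, macrophage-like and monocyte-like cells (horizontal axis, points with 95% counting intervals; dashed lines mark 2-fold). *Lpl* lies at -3.14 in microglia-like and -4.55 in macrophage-like cells, and the monocyte-like intervals are wide because only 14 control cells were found.

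Among the apolipoproteins, *Apoe* was at 17291 CPM with control Ab and 12677 CPM with anti-CD9 Ab in microglia-like cells (log2 ratio -0.45, -0.47 to -0.43). *Apoc2*, the activating cofactor of lipoprotein lipase, was at 16.56 and 28.60 CPM (0.79, 0.36 to 1.21), but its direction depended on how the cells were grouped. The log2 ratio was -0.79 without integration, -0.38 with cell types given cell by cell from their markers and 1.15 with mitochondrial counts up to 5%. *Apoc1*, a smaller exchangeable apolipoprotein, was at 12.45 and 13.53 CPM, with overlapping intervals. In the RefSeq table for GRCm38.p6, *Apoc1* lies between *Apoc4* and *Apoe*. *Apoc2* overlaps *Gm44805* in that table, and how reads of the overlap were assigned was not tested.

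The fatty acid carrier *Fabp5* was at 289.9 CPM with control Ab and 164.7 CPM with anti-CD9 Ab in microglia-like cells (log2 ratio -0.82, -0.97 to -0.67). *Fabp4* was nearly absent, with 13 and 3 UMIs, and 11 of the 13 came from a single cell. The sterol pump *Abca1* was at 446.8 and 580.2 CPM (0.38, 0.29 to 0.46). Its relative *Abcg1* was at 129.6 and 125.6 CPM, an interval of the log2 ratio (-0.23 to 0.14) that takes in 0. *Plin2* was at 41.84 and 57.21 CPM (0.45, 0.16 to 0.73). The pumps and the droplet coat protein thus did not share the low level of *Lpl*.

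Microglia-like cells were divided by state markers to see whether these ratios held within a state. The clusters hold different shares of the libraries: 856 and 299 cells were homeostatic and 484 and 118 damage-associated (led by *Ctnna3*, *Etl4* and *Csf1*). Another 350 and 296 took no state name, most of them in a sub-cluster led by *Saa3*, *Cxcl9* and genes for MHC class II. A further 25 and 28 cells were interferon-responsive. *Lpl* was lower with anti-CD9 Ab in each of the 4. In homeostatic cells it was at 73.95 and 3.282 CPM, the latter only 3 UMIs (log2 ratio -4.49, -6.79 to -2.92). In damage-associated cells it was at 716.2 and 182.3 CPM (-1.97, -2.29 to -1.67). In the cells with no state name it was at 388.5 and 30.14 CPM (-3.69, -4.25 to -3.18). The interferon-responsive cells were few. With each cell thinned to 1000 UMIs, *Lpl* was found in 24.0% (9.36 to 45.1%) and 3.57% (0.0904 to 18.3%) of them, with overlapping intervals. Apart from the interferon-responsive cells, the damage-associated cells thus had the highest *Lpl* level in both libraries and the ratio nearest to 0. Their thinned shares, 47.3% (42.8 to 51.9%) and 16.9% (10.7 to 25.0%), overlapped those of the interferon-responsive cells. Markers of the damage-associated state include *Igf1* and *Spp1*, whose levels ran most like *Lpl* (below). The name and the *Lpl* level are therefore not independent.

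The other members depended more on state. *Fabp5* was at 387.8 CPM with control Ab and 481.4 CPM with anti-CD9 Ab in damage-associated cells (log2 ratio 0.31, 0.11 to 0.51), but at 397.6 and 130.9 CPM in cells with no state name (-1.60, -1.87 to -1.34). *Apoe* was at 19723 and 21242 CPM in damage-associated cells (0.11, 0.08 to 0.14) and 26594 and 15886 CPM in cells with no state name (-0.74, -0.77 to -0.72). The lower level of both genes over all microglia-like cells was therefore not found within these damage-associated cells, but it was at a coarser resolution of 0.3 (log2 ratios -0.40 for *Fabp5* and -0.37 for *Apoe*). *Cd36* was higher with anti-CD9 Ab in homeostatic cells, at 4.930 and 60.16 CPM (3.61, 2.69 to 4.65), where it rested on 12 and 55 UMIs. Of those 55 UMIs, 49 lay in 1 of the 3 homeostatic sub-clusters. In damage-associated cells *Cd36* was at 24.98 and 69.34 CPM (1.47, 0.87 to 2.05). *Abca1* was at 458.1 and 521.8 CPM in homeostatic cells (0.19, 0.03 to 0.34) and at 458.0 and 681.5 CPM in damage-associated cells (0.57, 0.40 to 0.74).

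**Figure D2:**
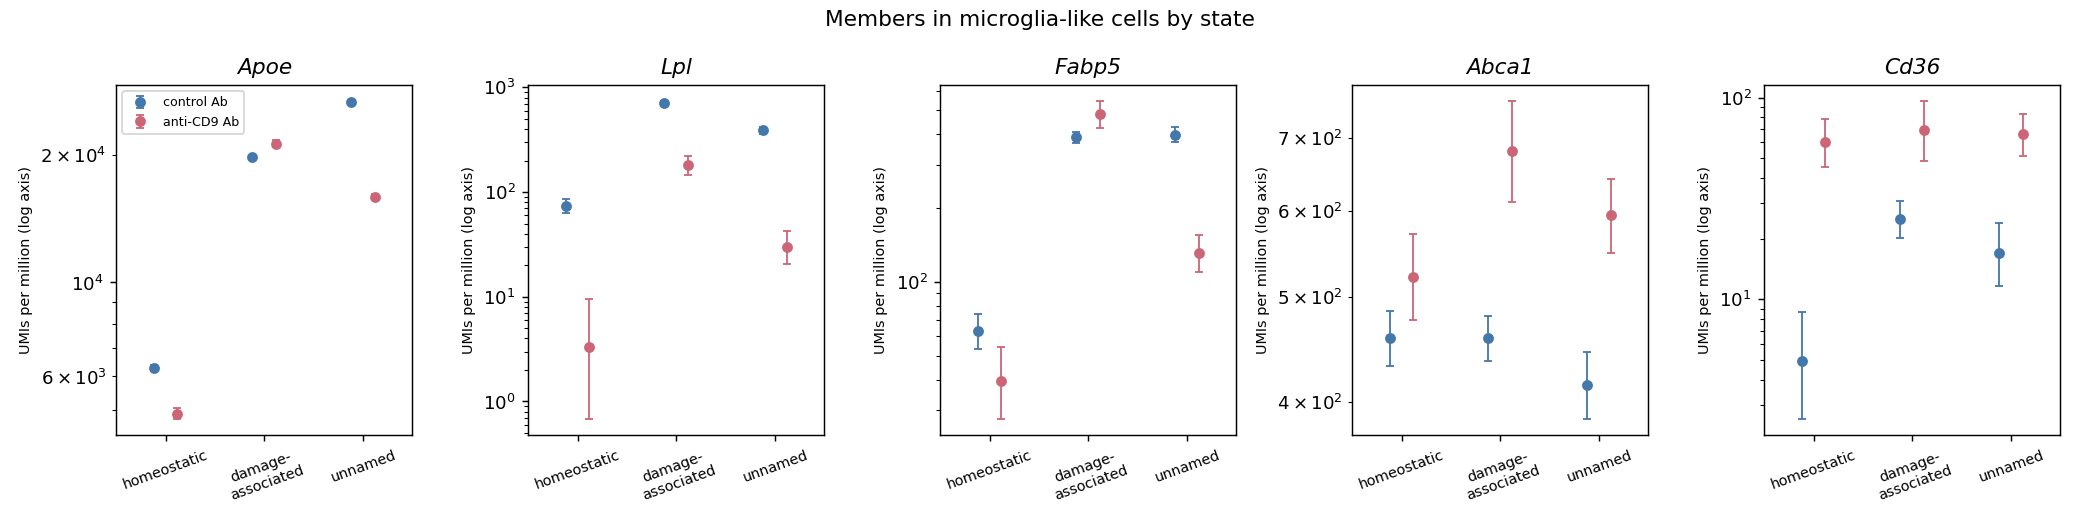
CPM (log axis) of 5 members in homeostatic, damage-associated and unnamed-state microglia-like cells, with control Ab (blue) and anti-CD9 Ab (red) and 95% counting intervals. *Lpl* is lower with anti-CD9 Ab in all 3 states shown and *Cd36* higher, whereas *Fabp5* is at 387.8 and 481.4 CPM in damage-associated cells and at 397.6 and 130.9 CPM in unnamed-state cells.

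Macrophage-like cells differed more. *Lpl* was at 302.0 CPM (331 UMIs) with control Ab and 12.85 CPM (63 UMIs) with anti-CD9 Ab (log2 ratio -4.55, -4.97 to -4.16), and 23 of the 63 UMIs came from 1 cell. *Fabp5* was at 6763 CPM (7412 UMIs) and 1744 CPM (8550 UMIs), a log2 ratio of -1.95 (-2.00 to -1.91). *Fabp4* was at 120.4 and 36.72 CPM (-1.71, -2.05 to -1.38). *Apoc1* was at 34.67 and 14.69 CPM (-1.24, -1.83 to -0.63), on 38 and 72 UMIs, but its log2 ratio was 0.49 with cell types given cell by cell. These 4 genes, the lipase, both fatty acid carriers and an apolipoprotein, made up the members that were 2-fold or more lower.

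The cholesterol pump *Abca1* went the other way in macrophage-like cells, at 254.6 CPM (279 UMIs) with control Ab and 599.4 CPM (2938 UMIs) with anti-CD9 Ab (log2 ratio 1.24, 1.06 to 1.42). *Apoe* was at 31131 and 18730 CPM (-0.73, -0.75 to -0.72), and *Apoc2* at 505.5 and 714.7 CPM (0.50, 0.37 to 0.63). *Abcg1*, at 141.4 and 119.8 CPM, and *Plin2*, at 284.7 and 288.1 CPM, had intervals of the log2 ratio that take in 0. *Cd36* had only 17 UMIs in each library. In all, 4 of the 9 members measured were 2-fold or more lower and 1 was 2-fold or more higher (median log2 ratio -0.73), where 5.78% of all 8334 genes measured were 2-fold or more lower and 8.23% 2-fold or more higher (median 0.03).

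The libraries were spread differently over the macrophage-like sub-clusters. Of the control cells, 100 were in a sub-cluster led by *Spp1* and *Gpnmb* (mp2), 62 in one led by genes that include the microglial *P2ry12* and *Cx3cr1* (mp1) and 9 in one led by *Saa3* and *Lcn2* (mp0). With anti-CD9 Ab, the numbers were 174, 301 and 372. Over all macrophage-like cells the 10 microglial markers summed to 3376 CPM with control Ab and 782.8 CPM with anti-CD9 Ab, and 7 of the 8 measured were 2-fold or more lower. Of the 10 monocyte markers 8 were 2-fold or more higher (median log2 ratio 1.79), although their sums were 23458 and 22679 CPM. Of the 9 macrophage markers measured 5 were 2-fold or more higher (median 1.21), with sums of 24293 and 23885 CPM. The part of these markers in the ratios was not tested. The members were also compared within each sub-cluster, which does not remove the microglial genes that lead mp1. Whether mp1 held microglia was not tested.

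Within mp2, *Fabp5* was at 9112 CPM with control Ab and 5907 CPM with anti-CD9 Ab (log2 ratio -0.63, -0.68 to -0.57), a smaller ratio than over all macrophage-like cells. *Fabp4* was at 163.2 and 134.8 CPM there (-0.28, -0.66 to 0.12) and *Apoc1* at 45.69 and 44.93 CPM. The 2-fold lower *Fabp4* and *Apoc1* of the pooled cells was thus not found within mp2. *Lpl* was at 381.8 and 10.45 CPM within mp2 (-5.19, -6.27 to -4.29) and at 213.9 and 5.482 CPM within mp1 (-5.29, -6.46 to -4.30). *Abca1* was at 202.3 and 671.8 CPM within mp2 (1.73, 1.45 to 2.02) and at 323.1 and 747.4 CPM within mp1 (1.21, 0.96 to 1.47). *Apoc2* was at 592.3 and 1642 CPM within mp2 (1.47, 1.31 to 1.64), and at 414.1 and 768.8 CPM within mp1 (0.89, 0.67 to 1.12). Low *Lpl* and high *Abca1* with anti-CD9 Ab were thus present in both sub-clusters with more than 50 cells of each library.

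*Apoe* turned with the sub-cluster. It was at 33774 and 37999 CPM in mp2 (log2 ratio 0.17, 0.15 to 0.19), at 29388 and 24613 CPM in mp1 (-0.26, -0.28 to -0.23), and at 11584 and 6527 CPM in mp0 (-0.83, -0.96 to -0.70), where the control library had 9 cells. *Fabp5* was at 3857 and 523.9 CPM in mp1 (-2.88, -3.00 to -2.76), so that it was lower with anti-CD9 Ab in mp1 and mp2 by very different amounts.

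**Figure D3:**
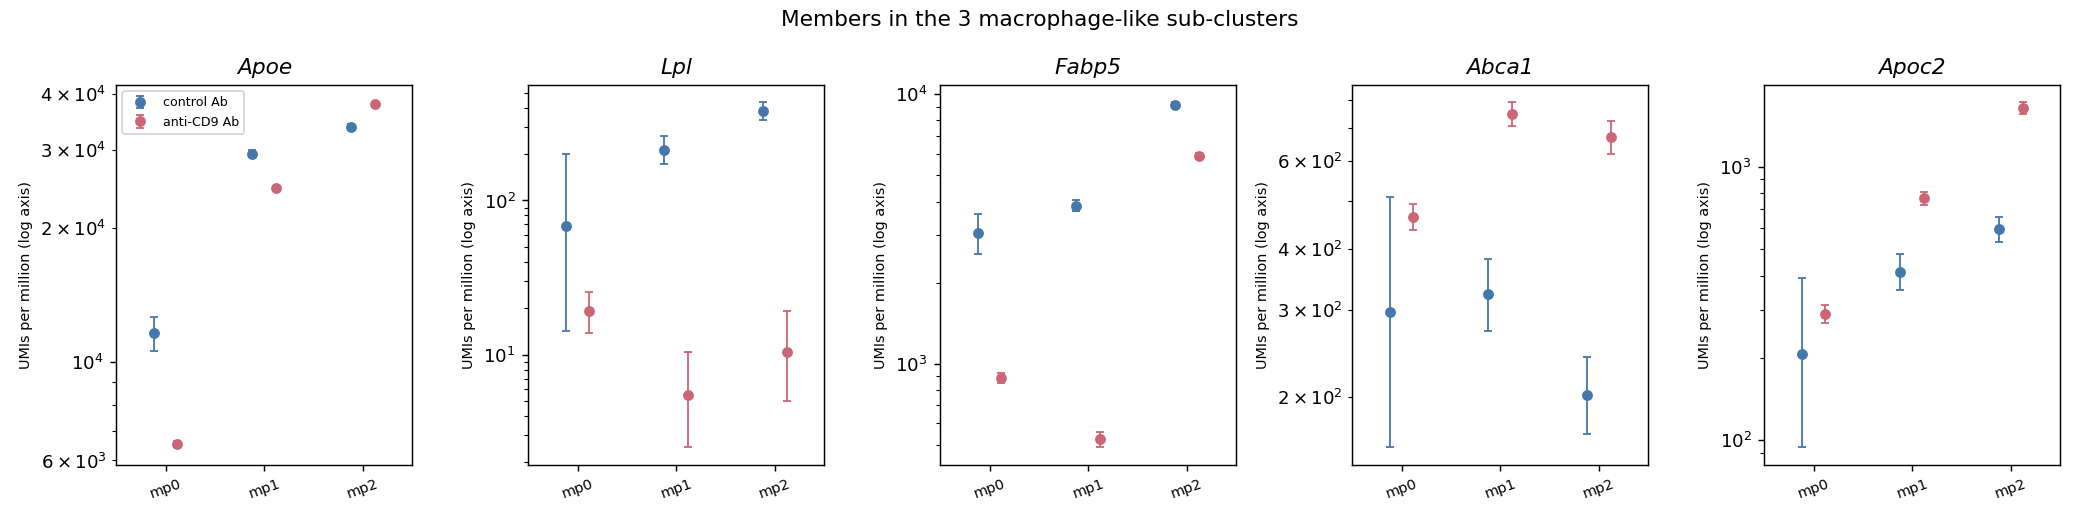
CPM (log axis) of 5 members in the macrophage-like sub-clusters mp0, mp1 and mp2, with control Ab (blue) and anti-CD9 Ab (red) and 95% counting intervals. *Lpl* and *Fabp5* are lower and *Abca1* and *Apoc2* higher with anti-CD9 Ab in mp1 and mp2, whereas *Apoe* is at 33774 and 37999 CPM in mp2 and 11584 and 6527 CPM in mp0.

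Monocyte-like cells gave little to compare, since the control library held 14 of them. *Apoe*, with 151 and 4956 UMIs, was at 3229 CPM with control Ab and 4393 CPM with anti-CD9 Ab (log2 ratio 0.44, 0.21 to 0.69), but its log2 ratio was -0.82 with the members kept in the clustering and -1.48 with cell types given cell by cell. *Abca1* had 5 and 289 UMIs, at 106.9 and 256.2 CPM (1.26, 0.02 to 2.89). *Lpl* had 2 and 10 UMIs. Of the 6 members measured, 1 was 2-fold or more higher and 0 were 2-fold or more lower, where 16.1% of the 3677 genes measured were 2-fold or more higher and 10.2% 2-fold or more lower.

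The share of cells with at least 1 UMI was compared after each cell was thinned to 1000 UMIs. T cell-like cells were taken as the background, but whether they lack these genes was not tested. *Lpl* was found in 21.3% (19.3 to 23.3%) of 1682 control microglia-like cells and in 4.14% of those given anti-CD9 Ab. The background was 1.05% of control T cell-like cells and, in the anti-CD9 Ab library, 0 of 902, which allows a share of up to 0.333% (3 counts of 902). In macrophage-like cells it was found in 17.6% (12.2 to 24.2%) and 1.07%. *Fabp5* was found in 82.9% (76.4 to 88.3%) and 37.9% of macrophage-like cells, against 12.1% and 11.2% of T cell-like cells. In NK cell-like cells it was found in 3.94% and 4.23%, so the background of *Fabp5* depended on the type taken. *Abca1* was found in 12.9% (8.29 to 18.9%) and 40.0% of macrophage-like cells, against 1.17% and 1.66%. *Cd36* was found in 1.07% and 5.10% of microglia-like cells, against 0 of 2470 control T cell-like cells (up to 0.121%, 3 counts of 2470) and 0.333% in the anti-CD9 Ab library. These shares differed in the same direction as the CPM. *Apoe*, in contrast, was found in 49.4% and 39.7% of T cell-like cells, a high background, and in 85.0% and 86.1% of microglia-like cells. Thinning left out 33 and 16 microglia-like, 1 and 2 macrophage-like and 339 and 76 T cell-like cells.

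**Figure D4:**
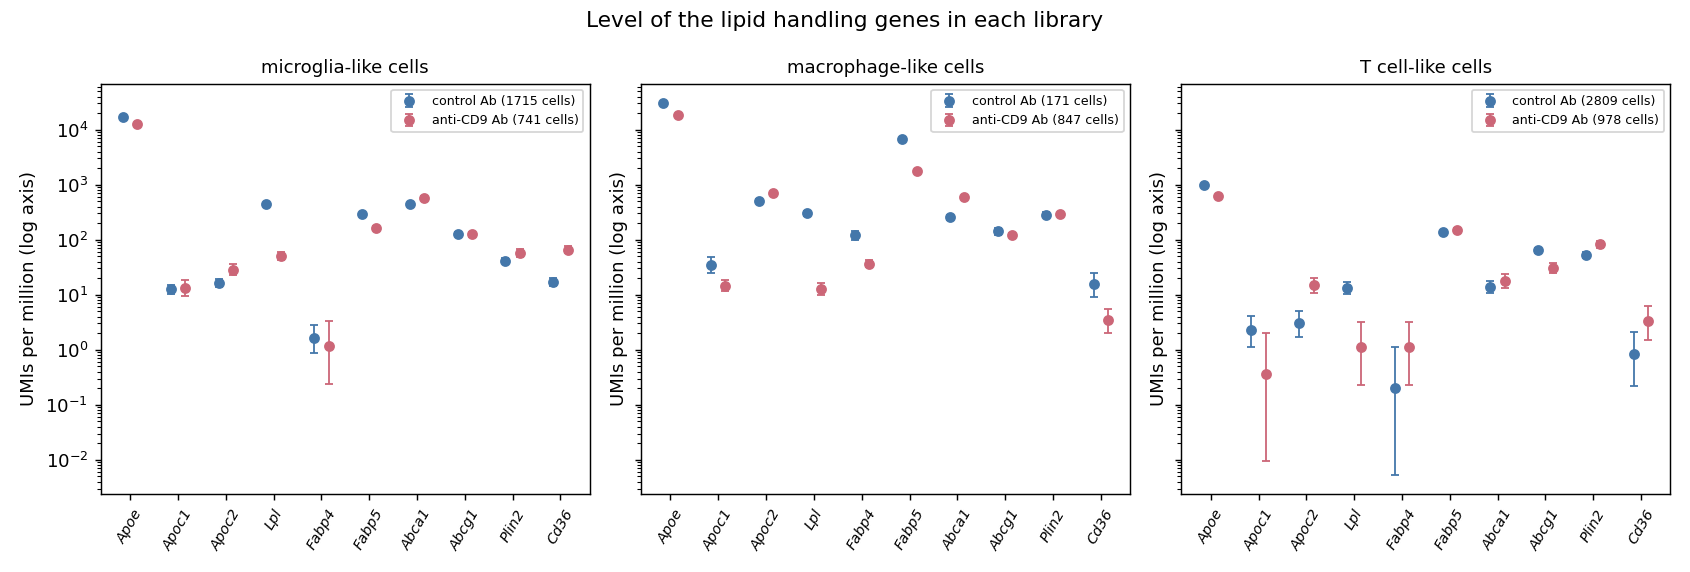
CPM (log axis) of the 10 members in microglia-like, macrophage-like and T cell-like cells with control Ab (blue) and anti-CD9 Ab (red), with 95% counting intervals. In T cell-like cells *Lpl* is at 13.53 and 1.107 CPM and *Apoe* at 987.6 and 625.9 CPM, below the levels of the same library's microglia-like cells.

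In the other 8 marker-defined cell types, 38 pairs of a member and a type had enough UMIs and at least 1 in each library. Of these, 9 were 2-fold or more lower and 4 were 2-fold or more higher with anti-CD9 Ab, where 6.68% and 5.89% of all 37479 such pairs of a gene and a type were. *Lpl* was lower in T cell-like cells as well, at 13.53 and 1.107 CPM (66 and 3 UMIs), and in astrocyte-like cells, at 94.85 and 10.53 CPM (74 and 1 UMIs). In oligodendrocyte-like cells it was at 126.6 CPM (72 UMIs) with control Ab and had no UMI with anti-CD9 Ab, so that it was at least 4.64-fold lower when the absent count is put at 3 UMIs. By CPM, *Lpl* was thus lower in all 5 named types with at least 50 *Lpl* UMIs. T cell-like, astrocyte-like and oligodendrocyte-like cells reached 50 UMIs only through the control library. Their direction was therefore not counted as a further result. Thinned to 1000 UMIs, *Lpl* was found in 8 of 284 and 0 of 28 astrocyte-like and in 11 of 157 and 0 of 32 oligodendrocyte-like cells. The intervals overlapped in both types. Predicted doublets made up 9.9% of the astrocyte-like and 17.4% of the oligodendrocyte-like cells. Whether free RNA or doublets carried *Lpl* into T cell-like, astrocyte-like and oligodendrocyte-like cells was not tested.

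In dendritic cell-like cells *Fabp5* was at 146.4 CPM with control Ab and 631.5 CPM with anti-CD9 Ab (log2 ratio 2.11, 1.81 to 2.42), the opposite of its direction in macrophage-like cells. *Cd36* was at 113.5 and 40.50 CPM there (-1.49, -1.99 to -0.99). Dendritic cell-like cells lay in 2 clusters, with 103 and 213 cells in one, led by *Wdfy4*, *Zfp366* and *Flt3*. The other, led by *Ccr7* and *Fscn1*, held 18 and 164. Members were not compared within each cluster, and the part of this spread in the ratios was not tested. *Plin2* was at 40.90 and 216.3 CPM in neutrophil-like cells, on 3 and 714 UMIs, where the control library held 65 cells. *Apoc2* in plasma cell-like cells had 1 and 115 UMIs, but 105 of the 115 came from a single cell.

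The members also differed in where they were found. With control Ab, *Apoe* was highest in macrophage-like cells (31131 CPM), followed by microglia-like cells (17291 CPM), then B cell-like (6864 CPM, 33 cells) and oligodendrocyte-like cells (6588 CPM), whose intervals overlap, and was lowest in plasma cell-like, T cell-like and NK cell-like cells (993.4, 987.6 and 922.8 CPM). The anti-CD9 Ab library had the same first 2 types, with astrocyte-like cells next (6910 CPM) and plasma cell-like cells last (511.2 CPM). Shares of cells did not keep all these ranks. Thinned to 1000 UMIs, *Apoe* was found in 81.0% of control astrocyte-like, 67.7% of B cell-like and 69.4% of oligodendrocyte-like cells. With anti-CD9 Ab it was found in 71.4% of astrocyte-like and 76.7% of monocyte-like cells. These intervals overlapped within each library. Predicted doublets made up 30.7% of B cell-like and 17.4% of oligodendrocyte-like cells. In control dendritic cell-like cells 49.4% of the *Apoe* UMIs came from 1 cell.

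*Apoc2* was a gene of macrophage-like and monocyte-like cells in both libraries (505.5 and 213.9 CPM with control Ab, 714.7 and 310.3 CPM with anti-CD9 Ab), against 16.56 and 28.60 CPM in microglia-like cells. *Fabp5* was likewise highest in macrophage-like cells of both libraries, and dendritic cell-like cells came second only with anti-CD9 Ab. *Abca1* was highest in microglia-like (446.8 CPM) and astrocyte-like cells (428.1 CPM) with control Ab, which did not differ beyond their intervals. With anti-CD9 Ab, macrophage-like (599.4 CPM), microglia-like (580.2 CPM) and astrocyte-like cells (526.7 CPM) were close together. *Plin2* was highest in macrophage-like cells (284.7 and 288.1 CPM), and *Cd36* passed from dendritic cell-like cells (113.5 CPM with control Ab) to microglia-like cells (65.71 CPM with anti-CD9 Ab) as its highest type.

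A large part of the anti-CD9 Ab library fell in 2 clusters that took no name and were almost empty in the control library. Cluster 6 (29 and 1239 cells, median 780.0 UMIs) was nearest to macrophages by its markers, and *Fabp5* was at 1715 and 897.4 CPM there (log2 ratio -0.93, -1.20 to -0.66), *Apoe* at 10275 and 6709 CPM and *Abca1* at 132.9 and 333.4 CPM (1.33, 0.43 to 2.40, on 10 and 460 UMIs). For *Fabp5* and *Apoe* the shares of cells went the other way. Thinned to 1000 UMIs, which left 16 and 384 cells, *Fabp5* was found in 6.25% (0.158 to 30.2%) and 30.2% (25.7 to 35.1%). *Apoe* was found in 62.5% (35.4 to 84.8%) and 82.3% (78.1 to 86.0%). The intervals of the 2 libraries overlapped for both genes, and only 1 of the 16 control cells had *Fabp5*. Mean UMIs per thinned cell also went the other way from CPM (*Fabp5* 0.188 and 1.05, *Apoe* 4.19 and 6.98). Thinning changed the cells used as well as the measure. The direction of these 2 genes in cluster 6 was therefore not settled. Cluster 8 (4 and 835 cells) was nearest to neutrophils and had *Plin2* at 675.6 CPM with anti-CD9 Ab, a higher level than in the named types of either library. Cluster 10 (346 and 222 cells), shallow and nearest to microglia, had *Lpl* at 191.5 and 46.09 CPM (-2.05, -3.19 to -1.08), and cluster 18 (117 and 83 cells), also nearest to microglia, at 594.5 and 72.07 CPM (-3.04, -3.75 to -2.41). *Lpl* was thus lower in both clusters, as in the named microglia-like cells, but these are cells of the same 2 libraries and no replicate.

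Over 40 groups of at least 50 cells (1 cluster in 1 library each), the genes whose level ran most like that of *Apoe* were *C1qb* (Pearson r = 0.96), *C1qc* and *Syngr1*. *Lpl* ran most like *Igf1* (0.91), *Spp1* and *Fcrls*, *Abca1* like *Mitf* (0.92), *Lrmda* and *Wdfy3*, *Apoc2* like *Ms4a7* (0.88), *Cfb* and *Lyz2*, and *Fabp4* like *Gdf3* (0.90), *Lyz1* and *Tnfsf13*. *Plin2* ran most like *Cstb* (0.90), *Fth1* and *Esd*, *Cd36* like *H2-DMb1* (0.83), *Spint1* and *Cd72*, and *Abcg1* like *Atp6v1b2* (0.81), *Slc6a6* and *Ifnar1*. *Fabp5*, most like *Lgals3* (0.75), *Sh3glb1* and *Lyz2*, and *Apoc1*, most like *Tmem106a* (0.73), *Ctsb* and *Tpp1*, had no gene as close. Among the members, *Apoe* and *Abca1* were most alike (0.79) and *Lpl* and *Plin2* least (-0.18). These groups share libraries and clusters, and the correlations describe cell types as much as antibodies.

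Other genes of lipid metabolism were compared in 6 lists. In microglia-like cells 5 of the 76 genes measured were 2-fold or more lower and 0 were 2-fold or more higher. Of all 10540 genes measured in these cells, 3.66% were 2-fold or more lower and 3.03% 2-fold or more higher. The 5 lower genes included *Scd2*, a fatty acid desaturase, at 36.86 and 12.37 CPM (log2 ratio -1.58). Also among the 5 was *Clu*, listed under lipoprotein uptake, at 7.346 and 1.160 CPM (-2.66, -4.98 to -1.05), on only 59 and 3 UMIs. So were the fatty acid carrier *Fabp3*, at 29.39 and 6.571 CPM (-2.16), and *Mgll*, which encodes monoacylglycerol lipase, at 72.96 and 32.08 CPM (-1.19). The highest genes of their lists included *Sorl1*, a sorting receptor for lipoproteins (47.81 and 95.09 CPM, 0.99), *Acsl4*, which activates fatty acids (117.0 and 157.7 CPM, 0.43), and *Psap*, the saposin precursor (1367 and 1565 CPM, 0.20). The others rested on fewer UMIs. They were *Mvd* of sterol synthesis (4.358 and 8.117 CPM, 0.90, 0.04 to 1.72, on 35 and 21 UMIs) and the transporter *Abca7* (6.848 and 11.98 CPM, 0.81, 0.12 to 1.47, on 55 and 31 UMIs). The last was *G0s2*, an inhibitor of lipolysis (8.467 and 13.14 CPM, 0.63, -0.00 to 1.25, on 68 and 34 UMIs). The lowest of the remaining lists were *Dhcr7* of sterol synthesis (-0.83) and the lysosomal *Hexa* (653.2 and 409.3 CPM, -0.67). The 14 genes for lysosomal breakdown of lipids and the 13 measured genes of sterol synthesis all stayed within 2-fold, with median log2 ratios of -0.19 and -0.18.

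In macrophage-like cells 6 of the 71 genes measured in these lists were 2-fold or more lower and 8 were 2-fold or more higher. Of all 8334 genes measured in these cells, 5.78% were 2-fold or more lower and 8.23% 2-fold or more higher. The lists were not compared within the macrophage-like sub-clusters, over which the libraries were spread differently, and the part of that spread was not tested. Of the 6 lower genes, 5 belonged to lysosomal breakdown of lipids, where 5 of 13 genes were lower and the median log2 ratio was -0.44. The galactosidase gene *Gla* was the lowest of these, at 135.0 and 48.35 CPM (-1.48). The sixth was *Fabp3*, at 104.0 and 6.325 CPM (-4.04, -4.66 to -3.46). *Dgat2*, which makes the final step of triglyceride synthesis, was at 1.825 and 40.40 CPM (4.47, 2.60 to 7.52), on 2 and 198 UMIs. In the list of sterol efflux genes, which does not include *Abca1* and *Abcg1*, *Pltp*, a phospholipid transfer protein, was at 70.25 and 149.8 CPM (1.09, 0.75 to 1.45). Other genes that were the highest of their list were *Idi1* of sterol synthesis (1.82, 0.39 to 3.74, on 4 and 63 UMIs), *Fabp7* (1.51, 0.07 to 3.44, on 4 and 51 UMIs) and *Galc* (0.02). The other lowest were *Smpdl3a* (-0.98), *Plin3* (-0.91), *Lrpap1* (-0.67) and *Msmo1* (-0.37). Over all macrophage-like cells *Fabp3* was thus lower, as *Fabp4* and *Fabp5* were. *Fabp7*, with 4 and 51 UMIs, had enough UMIs only through the anti-CD9 Ab library and was not set against them. *Fabp4* was not 2-fold lower within mp2, and *Fabp3* was not compared within the sub-clusters. Sterol efflux and sterol synthesis genes had medians of 0.30 each.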

How the data were processed

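Both libraries were made with the 10x Genomics 3' assay. The authors deposited raw UMI counts per gene and cell barcode. The submitters' processing notes name Cell Ranger 8.0.0 and GRCm39, whereas the paper's methods name other versions, so no coordinates are given. Kept cells (limits above) were normalised and integrated by anchors in Seurat 5.3.0 (R 4.3.3), with members and related lists left out of the 2000 variable genes. Harmony, which the authors used, was not used here. Clusters came from 30 components at resolution 0.8, and microglia-like and macrophage- or monocyte-like cells were clustered again (20 components, resolution 0.5). A cluster was named if 50% and at least 3 of a type's markers were 2-fold or more above the other cells and found in 10% of its cells. It stayed unnamed if over 50% of its cells were predicted doublets, if its 10 leading genes held more markers of another type, or if it was shallow with no marker among them. The limits for names were chosen after seeing the clusters, and the members and lists with earlier results of these data known. Predicted doublets (10.0% and 11.7%) otherwise stayed in. Counts were summed by type and library, and ratios were given exact conditional intervals, levels exact Poisson intervals and shares exact Clopper-Pearson intervals. A count of 0 was put at 3 counts in lists of ratios and in the upper limit of a share, in place of the interval. The ratio and its limit were tested on simulated data. Genes named were all members, the lowest and highest gene of each list in microglia-like and macrophage-like cells, and the 3 genes most like each member (log2(CPM + 10)); 1 gene that this rule names is not reported here. Cell types were also rebuilt with other settings, described in the closing section.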

Additional observations from a re-analysis of the deposited data

Results flagged for a closer look

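*Fabp5* and *Cd36* differed in opposite directions between cell types, which was not tested because each antibody had 1 library. The log2 ratio of *Fabp5* was -1.95 in macrophage-like, -2.08 in B cell-like and -1.09 in plasma cell-like cells and 2.11 in dendritic cell-like cells. B cell-like cells had 40 and 18 *Fabp5* UMIs and plasma cell-like cells 37 and 17, against 98 and 1029 in dendritic cell-like cells. Thinned to 1000 UMIs, *Fabp5* was found in 12.9% and 6.59% of B cell-like cells and in 3.38% and 5.07% of plasma cell-like cells. The intervals overlapped in both types, so the shares did not show the lower level there. In dendritic cell-like cells the shares were 11.8% and 26.4%. Predicted doublets made up 30.7% of the B cell-like and 17.1% of the plasma cell-like cells. The log2 ratio of *Cd36* was -1.49 in dendritic cell-like cells, on 76 and 66 UMIs, and 1.94 in microglia-like cells. Dendritic cell-like cells pooled different clusters, which the libraries filled unequally and which were not compared apart. Outside the named types, *Cd36* was also higher with anti-CD9 Ab in cluster 18, which was nearest to microglia and took no name, at 33.20 and 157.9 CPM (log2 ratio 2.25).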

How the results depend on the processing

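No paired analysis was possible because each antibody had 1 library. Of 289 values of single members under other settings, 213 lay within the counting interval of the value above and the others moved beyond it. The 213 include every value of the setting with all members that had a UMI in each library, which cannot move a single member. Centring on the median of all genes moved every member of a type by the same amount. Of the 289, 21 had the opposite sign. Of those 21, only 1 had been 2-fold or more, *Apoc1* in macrophage-like cells (0.49 with cell types given cell by cell from their markers). The rest included *Apoc2* and *Apoc1* in microglia-like cells and *Apoe* and *Fabp5* in monocyte-like cells, the last at -3.21 cell by cell in place of 0.53. *Lpl* stayed 2-fold or more lower under all settings tried in microglia-like cells (-3.28 to -1.69, the latter without integration on 172 cells with anti-CD9 Ab) and macrophage-like cells (-5.41 to -3.61), as did *Fabp5* in macrophage-like cells (-2.37 to -1.46), and *Cd36* stayed 2-fold or more higher in microglia-like cells (1.19 to 2.27). *Abca1* in macrophage-like cells went from 0.86 to 1.60. With cell types given cell by cell, the members' median was -0.47 in microglia-like cells (3 lower) and -0.29 in macrophage-like cells, and 3 were lower in monocyte-like cells. In microglia-like cells 2 members were 2-fold or more higher with mitochondrial counts up to 5%, with 20 components, with the members kept in the clustering and with a mean over cells, and 3 were lower with doublet sub-clusters kept. In macrophage-like cells the median was -0.49 with mitochondrial counts up to 5% and -0.99 with all members that had a UMI in each library. Without mp0 it was -0.11 with 2 higher, without mp1 it was -1.03, and without mp2 0 were higher. Keeping doublet sub-clusters and leaving out mp0, mp1 or mp2 were chosen after seeing the data. In monocyte-like cells 4 members were higher without integration, 2 with 20 components and 0 with the members kept in the clustering, and 2 were lower with all members that had a UMI in each library. Under these other settings, members past 2-fold were not set beside the share of all genes. Whether those counts are particular to the members therefore cannot be told. A member's share was counted as lower or higher where the intervals of the 2 libraries did not overlap. Thinned to 500 UMIs, 1 share was lower and 1 higher in microglia-like cells, in place of 2 and 2. Not thinned, 5 were lower in macrophage-like cells in place of 3. The same count was not made over all genes, so whether these numbers are particular to the members cannot be told. At resolution 0.3 the median in damage-associated cells was -0.17 in place of 0.31. At a log2 limit of 0.5, 13 related genes were lower and 6 higher in microglia-like cells (of all genes, 11.7% and 10.9%), and 17 and 18 in macrophage-like cells (17.2% and 20.7%). The causes were not tested. The 14 control monocyte-like cells and the 65 control neutrophil-like cells limit what could be seen in those types.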
